A study of Mus musculus with 12 samples.

Results

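The insulin-like growth factor (IGF) genes described here were 10 of the 23282 gene symbols counted in C22 mouse club cells: the ligands *Igf1* and *Igf2*, the receptors *Igf1r* and *Igf2r*, and the binding protein genes *Igfbp2*, *Igfbp3*, *Igfbp4*, *Igfbp5*, *Igfbp6* and *Igfbp7*. They were listed by gene symbol, and the list was chosen by the library-scaled counts of these same samples, so their values over the 4 groups are given as a description. Where a member is said to be among the called genes, this gives its place in a fit over all genes and counts as no independent test of that member. C22 is an immortalised, cloned lung Clara (club) cell line from H-2Kb-tsA58 transgenic mice, which carry a temperature-sensitive viral large T antigen, and all 12 libraries came from these cells after differentiation. The groups, with 3 libraries each, were negative control cells (NC), negative control cells given 20 ng/ml TGF-β1 for 24 h after serum starvation (NC + TGF-β1), *Pdcd5* knockdown cells (labelled siPDCD5, here siPdcd5), and knockdown cells given the same TGF-β1 treatment (siPdcd5 + TGF-β1). The comparisons address how *Pdcd5* knockdown alters transcription in club cells with and without TGF-β1. Nothing in the labels states that the 3 libraries of a group came from separate cultures, so the errors below measure the spread between libraries, which may be technical.

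Total counts were 12809857 to 17714828 per library. Values are counts per 1000000 (CPM), scaled by TMM factors, which adjust each library's total for its composition, and 3 counts corresponded to 0.169 to 0.234 CPM. *Pdcd5*, the targeted gene, had 68.1 ± 4.68 CPM in NC and 21.1 ± 1.07 CPM in siPdcd5 (SD, n = 3), and 67.8 ± 1.69 CPM in NC + TGF-β1 and 24.1 ± 2.26 CPM in siPdcd5 + TGF-β1. Defining club cell markers were absent or nearly so: the secretoglobin *Scgb1a1* had 0 or 1 count per library and *Scgb3a2* and *Cyp2f2* had 0 in all 12. Other epithelial genes ranged widely: *Epcam* had 0 or 1 count and *Cdh1* 1.91 to 4.03 CPM, but the keratins *Krt8* and *Krt18* had 171 to 524 and 373 to 1199 CPM and the endodermal factor *Foxa2* had 49.1 to 213 CPM. *Foxa1* had 0 counts in every library, *Nkx2-1* had 0 or 1, and *Sox2*, *Elf3* and *Krt19* had at most 2, 3 and 4. Mesenchymal genes also ranged widely. *Tcf21* had 0 counts in every library, *Lum* at most 1 and *Thy1* at most 12. *Pdgfra* had 3.39 to 5.93 CPM and the collagen *Col1a1* 1695 to 6542 CPM. The alveolar marker *Sftpc* had at most 2 counts, the leukocyte marker *Ptprc* at most 6 and the endothelial marker *Pecam1* at most 4. Replicate 2 of NC + TGF-β1 lay apart from the other libraries of its group, and so did replicate 1 of siPdcd5. Some member values that rest on these libraries are given below with and without them. Fold changes of genes outside the members are given with all libraries.

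IGF1 and IGF2 are secreted peptides that signal through the IGF1 receptor, a tyrosine kinase that acts through insulin receptor substrates, PI3K and AKT on growth, survival and FOXO factors. IGF2R carries no kinase and removes IGF2 from the cell surface, and it also sorts lysosomal enzymes that bear mannose 6-phosphate. The IGF-binding proteins hold IGFs outside the cell, and extracellular proteases such as PAPPA and HTRA1 cut them and free the ligand. In the lung, IGF1 is known as a growth factor for epithelial cells and fibroblasts.

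In the annotation of build GRCm38, *Igf1* lies at chr10:87858265-87937042 on the plus strand, *Igfbp6* at chr15:102144362-102149511 on the plus strand and *Igfbp7* at chr5:77349240-77408041 on the minus strand. *Igfbp2* and *Igfbp5* are neighbours on chromosome 1, 5.46 kb apart, and *Igfbp1* and *Igfbp3* are neighbours on chromosome 11, 3.54 kb apart. The libraries hold tags from the 3′ ends of transcripts, so the terminal exon matters for counting. The terminal exon of *Igfbp7* shares 85 bases (chr5:77349240-77349324) with the terminal exon of *Polr2b*, a subunit gene of RNA polymerase II on the other strand. The counting was not stated to use strand, so reads of these 2 genes cannot be told apart, and each *Igfbp7* value below carries that limit.

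The 3 members whose group means spanned the widest range were *Igf1*, *Igfbp7* and *Igfbp6*. Their promoters are shown because the first pair was higher and the last lower after TGF-β1. The sequences are the 250 bases before a RefSeq transcript start on build GRCm38.p6, 5′ to 3′ on the strand of the gene. They are chr10:87860861-87861110 (plus) for *Igf1*, chr5:77408046-77408295 (minus) for *Igfbp7* and chr15:102143936-102144185 (plus) for *Igfbp6*. Capitals mark CAGAC or its reverse complement GTCTG, the core of a SMAD box.
Igf1: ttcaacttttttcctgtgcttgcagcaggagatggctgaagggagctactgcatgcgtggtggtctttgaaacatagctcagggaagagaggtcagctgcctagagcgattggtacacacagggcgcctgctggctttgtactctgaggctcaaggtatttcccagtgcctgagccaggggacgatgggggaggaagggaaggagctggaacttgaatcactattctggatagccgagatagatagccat
Igfbp7: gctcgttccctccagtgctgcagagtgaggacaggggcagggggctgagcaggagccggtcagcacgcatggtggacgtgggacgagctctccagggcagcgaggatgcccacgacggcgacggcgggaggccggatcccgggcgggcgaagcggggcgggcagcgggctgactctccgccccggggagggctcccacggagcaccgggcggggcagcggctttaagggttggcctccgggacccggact
Igfbp6: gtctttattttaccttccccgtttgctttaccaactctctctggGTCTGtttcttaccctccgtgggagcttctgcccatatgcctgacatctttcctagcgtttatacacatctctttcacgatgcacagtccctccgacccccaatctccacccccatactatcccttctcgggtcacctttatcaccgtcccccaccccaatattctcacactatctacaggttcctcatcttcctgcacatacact

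The *Igfbp6* window held 1 SMAD box core, starting 206 bases before the start, and 1 TATA match (TATAAA or its reverse TTTATA), starting 148 bases before it. The *Igf1* and *Igfbp7* windows held 0 of either, and none of these 3 windows held the FOXO letters GTAAACA or TGTTTAC. The *Igf1* window lies inside the annotated gene, before an internal transcript start and downstream of the annotated gene start at chr10:87858265. The bases before that gene start were not searched. Across 32851 RefSeq promoter windows of the same length, 42.2% held the SMAD core, 12.4% the TATA letters and 3.17% the FOXO letters, so the SMAD core in particular is common. The *Igfbp7* window was 74.0% G and C, against 52.8% in *Igf1* and 49.6% in *Igfbp6*. All 10 members had a window in the table, 14 windows in all, of which 7 held the SMAD core. These matches describe letters in a window and locate no binding.

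*Igf1* had the widest spread of levels among the members. Its libraries held 5.93, 7.86 and 8.44 CPM in NC and 54.5, 57.9 and 57.5 CPM in NC + TGF-β1. In siPdcd5 they held 1.11, 1.65 and 0.708 CPM, and in siPdcd5 + TGF-β1 26.0, 23.8 and 25.4 CPM. No library of any group overlapped with another group, in the order siPdcd5, NC, siPdcd5 + TGF-β1 and NC + TGF-β1 from low to high. The counts behind these levels were 11 to 30 per library in siPdcd5, 78 to 110 in NC, 308 to 388 in siPdcd5 + TGF-β1 and 684 to 786 in NC + TGF-β1.

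With TGF-β1, *Igf1* was 7.63-fold higher in control cells (log2 difference 2.93, SE 0.16, n = 3 per group) and 21.1-fold higher in knockdown cells (log2 difference 4.40, SE 0.23). With knockdown, it was 6.25-fold lower without TGF-β1 (log2 difference -2.64, SE 0.24) and 2.26-fold lower with it (log2 difference -1.17, SE 0.15). The lowest and highest group means of log2 CPM, with a prior count of 2, were 45.7-fold apart. The log2 response to TGF-β1 was larger by 1.47 in knockdown cells (SE 0.28, 95% interval 0.86 to 2.08). On the linear scale the order was the other way round, with a mean gain of 49.2 CPM in control cells and 23.9 CPM in knockdown cells. The difference between the log2 responses was not called (edgeR adjusted p = 0.346). It was called in 1 of 18 alternatives, DESeq2. Leaving out siPdcd5 replicate 2, the library with the most *Igf1* counts of its group, moved the log2 response in knockdown cells to 4.79 and the knockdown difference without TGF-β1 to -3.04. Every alternative setting and left-out library kept the sign of the *Igf1* differences and their place among the called genes in the 4 comparisons of 2 groups.

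The other ligand gene was close to undetected. *Igf2* had 1, 5 and 3 counts in NC, 0, 0 and 1 in NC + TGF-β1, 1, 1 and 0 in siPdcd5, and 1, 5 and 1 in siPdcd5 + TGF-β1. The groups overlapped, and at these counts no difference was detectable. *H19*, the imprinted non-coding neighbour of *Igf2*, had 0 to 20 counts per library, with 1 to 20 in NC + TGF-β1.

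The summed level of the fibroblast markers had the same order over the groups as *Igf1*, but its members differed in direction. The sum over the 12 markers was 2630 to 3209 in siPdcd5, 3841 to 4090 in NC, 5656 to 6019 in siPdcd5 + TGF-β1 and 7493 to 8122 in NC + TGF-β1. Of these 12 markers, 11 had any count, *Col1a1* and *Col3a1* made up most of the sum, and *Lum* had at most 1 count. *Col1a1* had means of 2719 CPM in NC and 6119 in NC + TGF-β1, whereas *Dcn* had 95.7 and 22.6, *Prrx1* 49.9 and 26.5, and *Twist1* 13.7 and 8.71. *Col1a2* had another order, with 3.58 CPM in NC, 12.05 in siPdcd5, 24.7 in NC + TGF-β1 and 39.5 in siPdcd5 + TGF-β1. The summed club cell list of 9 genes was 547 to 556 CPM in NC, 231 to 245 in NC + TGF-β1, 293 to 327 in siPdcd5 and 156 to 166 in siPdcd5 + TGF-β1. Of these 9 genes 6 had any count, and nearly all of the sum was *Aldh1a1*. The 11 general epithelial markers, 10 with any count, summed to 762 to 897 CPM without TGF-β1 and 1294 to 1728 CPM with it. *Krt8* and *Krt18* made up most of this sum and were higher with TGF-β1, at means of 189 and 495 CPM in NC against 486 and 1024 in NC + TGF-β1. *Foxa2* was lower, at 172 against 50.3 CPM in control cells and 203 against 71.2 CPM in knockdown cells. The 8 alveolar type 2 cell markers summed to 20.1 to 26.7 CPM, the 7 endothelial markers to 0.804 to 2.48 CPM and the 7 immune cell markers to 11.0 to 21.6 CPM, and 6 of each of these lists had any count. *Abca3* made up nearly all of the alveolar sum, *Kdr* most of the endothelial sum, and *Cd68* with *Cd14* nearly all of the immune sum. In bulk RNA, fewer cells of a type and less RNA per cell cannot be told apart, and the part of these lists in the IGF results was not tested.

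**Figure D1:**
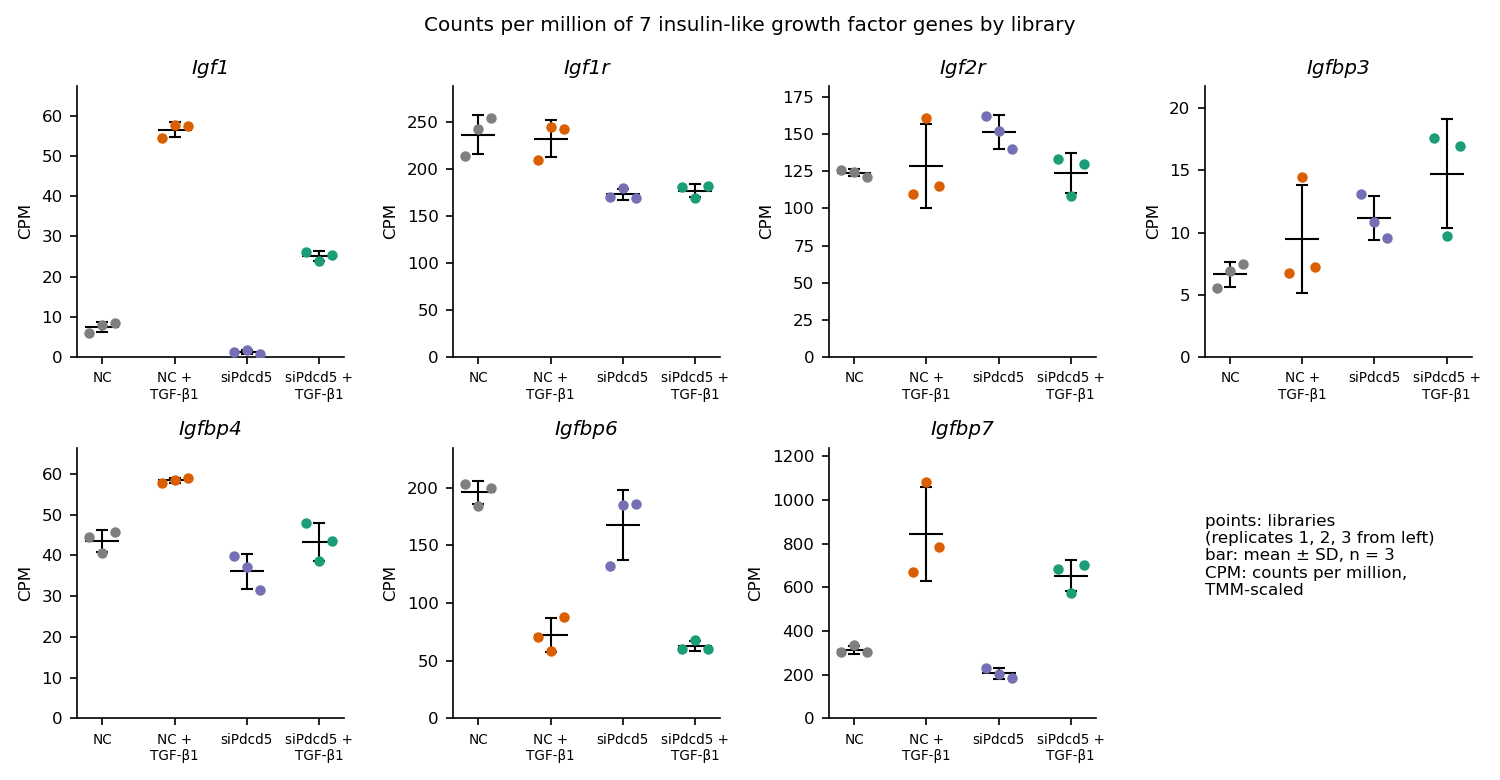
CPM (vertical axis, linear, TMM-scaled) of the 7 members above the count filter in each group (horizontal axis). Points are the 3 libraries of a group in replicate order and bars are the mean ± SD. The *Igf1* libraries are lowest in siPdcd5 (0.708 to 1.65 CPM) and highest in NC + TGF-β1 (54.5 to 57.9 CPM), whereas *Igf1r* differs by knockdown and *Igfbp6* by TGF-β1.

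The receptor gene *Igf1r* differed by knockdown and hardly by TGF-β1. It had 213, 242 and 254 CPM in NC and 209, 245 and 243 CPM in NC + TGF-β1. In knockdown cells it had 170, 179 and 169 CPM without TGF-β1 and 181, 169 and 181 CPM with it. All 6 knockdown libraries lay below all 6 control libraries, and within each of these sets the treated and untreated libraries overlapped. The log2 knockdown difference was -0.45 (SE 0.09, 1.37-fold lower) without TGF-β1 and -0.39 (SE 0.09, 1.31-fold lower) with it. The log2 TGF-β1 difference was -0.03 in control cells (95% interval -0.22 to 0.17) and 0.03 in knockdown cells (95% interval -0.16 to 0.23), so changes of either sign within these limits cannot be told from no change. The place of *Igf1r* among the called genes was close to the threshold with TGF-β1. It was kept in 4 of 19 alternatives there and in 16 of 19 without TGF-β1, where it was lost without NC replicate 2, NC replicate 3 or siPdcd5 replicate 3, at log2 differences of -0.44, -0.41 and -0.44. The log2 difference with TGF-β1 stayed between -0.46 and -0.35 over all 19.

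*Igf2r*, the scavenger receptor for IGF2, had 126, 125 and 121 CPM in NC and 109, 161 and 115 CPM in NC + TGF-β1. It had 162, 152 and 140 CPM in siPdcd5 and 134, 109 and 130 CPM in siPdcd5 + TGF-β1. The siPdcd5 libraries lay above those of NC (log2 difference 0.29, SE 0.13) and above those of siPdcd5 + TGF-β1 (log2 difference for TGF-β1 -0.29, SE 0.13), and neither difference was among the called genes. In NC + TGF-β1, replicate 2 stood apart, and leaving it out turned the log2 TGF-β1 difference in control cells from 0.05 to -0.14 and the knockdown difference with TGF-β1 from -0.05 to 0.14. Without that library the TGF-β1 difference in knockdown cells was called. *Airn*, a non-coding RNA on the other strand that overlaps *Igf2r* but not its terminal exon, had 15.97 to 26.4% of the *Igf2r* counts.

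*Igfbp7* encodes a secreted binding protein with low affinity for IGFs that also binds insulin. It had 304, 335 and 304 CPM in NC and 668, 1082 and 784 CPM in NC + TGF-β1. It had 232, 202 and 183 CPM in siPdcd5 and 684, 574 and 703 CPM in siPdcd5 + TGF-β1. All treated libraries lay above all untreated ones, and the siPdcd5 libraries lay below those of NC. Between the treated groups the libraries overlapped. The log2 TGF-β1 difference was 1.43 (SE 0.15, 2.69-fold) in control cells and 1.67 (SE 0.15, 3.18-fold) in knockdown cells. Without NC + TGF-β1 replicate 2 the former was 1.21. The log2 knockdown difference was -0.61 (SE 0.15) without TGF-β1 and -0.37 (SE 0.15) with it, and the latter was -0.15 without NC + TGF-β1 replicate 2. The knockdown difference without TGF-β1 was among the called genes in 10 of 19 alternatives, at -0.71 to -0.54 throughout. It was not called without any of the 3 NC libraries, siPdcd5 replicate 2 or 3, or siPdcd5 + TGF-β1 replicate 1 or 3, nor with the replicate block or with quantile normalization and limma-trend.

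The counts of *Polr2b*, which shares the end of its terminal exon with *Igfbp7*, followed those of *Igfbp7* library by library. *Polr2b* had 287, 298 and 269 CPM in NC, 593, 826 and 671 CPM in NC + TGF-β1, 213, 195 and 174 CPM in siPdcd5, and 586, 507 and 582 CPM in siPdcd5 + TGF-β1. Its count was 76.4 to 96.8% of the *Igfbp7* count, and its log2 TGF-β1 difference was 1.29 in control cells and 1.52 in knockdown cells. The excess of *Igfbp7* over *Polr2b* was 17.6 to 37.4 CPM in NC, 74.5 to 256 CPM in NC + TGF-β1, 6.56 to 18.2 CPM in siPdcd5 and 66.7 to 121 CPM in siPdcd5 + TGF-β1. The excess of every treated library was above that of every untreated library. How the reads divide between the 2 genes was not tested.

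**Figure D2:**
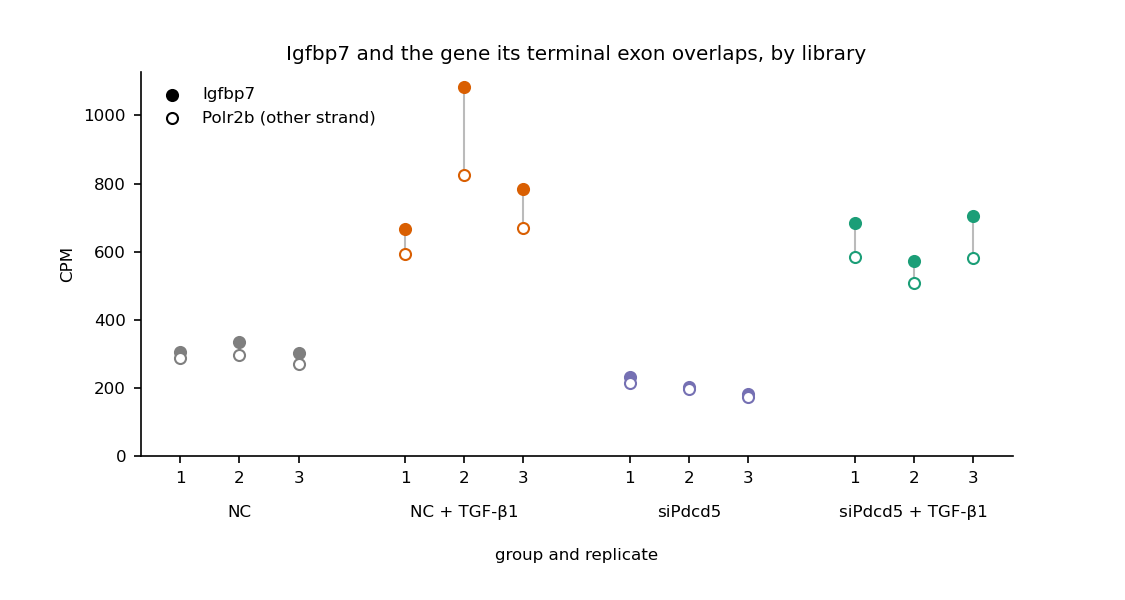
CPM (vertical axis, linear) of *Igfbp7* (filled points) and *Polr2b* (open points) in each of the 12 libraries, by group and replicate (horizontal axis). In each library the open point lies below the filled one, at 76.4 to 96.8% of its count, and both points are higher in the treated groups.

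*Igfbp6*, whose protein binds IGF2 more tightly than IGF1, was lower with TGF-β1. It had 203, 184 and 199.99 CPM in NC and 70.5, 58.8 and 88.2 CPM in NC + TGF-β1. It had 132, 185 and 185 CPM in siPdcd5 and 60.2, 68.0 and 60.2 CPM in siPdcd5 + TGF-β1. All treated libraries lay below all untreated ones, and NC and siPdcd5 overlapped, as did the treated groups. The log2 TGF-β1 difference was -1.43 (SE 0.15, 2.70-fold lower) in control cells and -1.42 (SE 0.15, 2.67-fold lower) in knockdown cells. The difference between these responses was 0.02 on the log2 scale (95% interval -0.43 to 0.46). The log2 knockdown difference was -0.22 (95% interval -0.54 to 0.09) without TGF-β1 and -0.21 (95% interval -0.53 to 0.11) with it. Over 19 alternatives the former lay between -0.30 and -0.08, nearest 0 without siPdcd5 replicate 1. The difference with TGF-β1 lay between -0.34 and -0.05, nearest 0 without NC + TGF-β1 replicate 3.

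*Igfbp4*, an IGF-binding protein that PAPPA cuts, had 44.4, 40.6 and 45.8 CPM in NC and 57.9, 58.5 and 59.1 CPM in NC + TGF-β1. It had 39.9, 37.1 and 31.4 CPM in siPdcd5 and 48.1, 38.7 and 43.4 CPM in siPdcd5 + TGF-β1. The NC + TGF-β1 libraries lay above all other libraries. The log2 TGF-β1 difference was 0.42 (SE 0.11) in control cells and 0.27 (SE 0.11) in knockdown cells, and the log2 knockdown difference was -0.27 (SE 0.11) without and -0.43 (SE 0.11) with TGF-β1. Both knockdown differences were without overlap of libraries. Of the 4 differences, that of TGF-β1 in control cells was among the called genes, and it was lost without NC replicate 2, at 0.37. The knockdown difference with TGF-β1 was called in 1 of 19 alternatives, DESeq2.

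*Igfbp3* encodes a major carrier of IGFs in serum. It had 5.55, 6.90 and 7.45 CPM in NC and 6.77, 14.5 and 7.24 CPM in NC + TGF-β1. It had 13.1, 10.9 and 9.53 CPM in siPdcd5 and 17.6, 9.72 and 16.9 CPM in siPdcd5 + TGF-β1. It was the member whose knockdown differences were positive in both conditions, at 0.75 (SE 0.29) without and 0.64 (SE 0.28) with TGF-β1 on the log2 scale. The siPdcd5 libraries lay above those of NC, the treated groups overlapped, and neither difference was among the called genes. Replicate 2 of NC + TGF-β1 held 194 of the reads against 85 and 99 in the other libraries of its group. Without it, the log2 TGF-β1 difference in control cells went from 0.52 to 0.08, and the knockdown difference with TGF-β1 went to 1.08. Both knockdown differences were then called, and the one without TGF-β1 was also called when only the libraries compared were fitted.

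*Igfbp2* and *Igfbp5* were at the limit of detection. *Igfbp2* had 0 or 1 count in every library. *Igfbp5* had 0 or 1 count in 10 libraries, 6 in siPdcd5 replicate 1 and 4 in siPdcd5 + TGF-β1 replicate 2. *Igfbp1*, which is no member, had 0 counts in all 12 libraries, which allows at most 0.169 to 0.234 CPM per library.

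**Figure D3:**
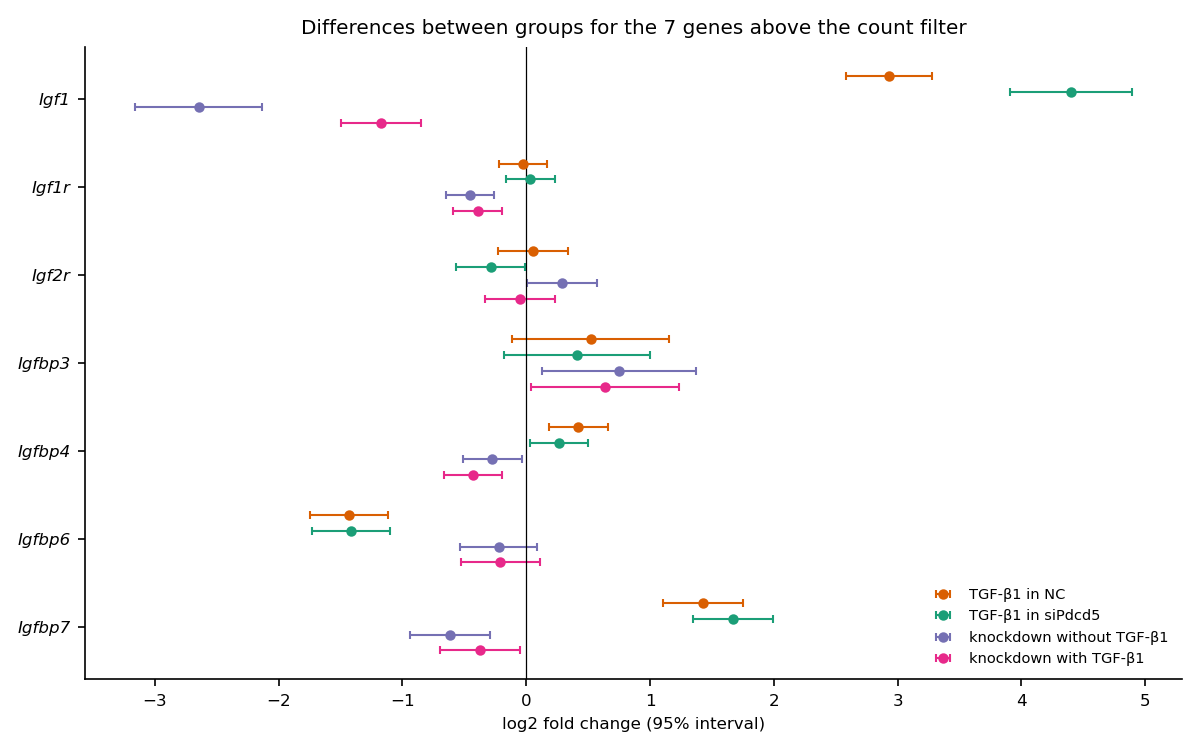
Log2 fold change (horizontal axis) of the 7 members above the count filter (vertical axis) in the 4 comparisons of 2 groups, each from 3 libraries per group. Points are fitted differences and bars are 95% intervals. *Igf1* extends from -2.64 to 4.40, *Igfbp6* is near -1.43 in both TGF-β1 comparisons, and the *Igf1r* intervals lie below 0 for knockdown and across 0 for TGF-β1.

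The reads of the 6 *Igfbp* members were divided differently with and without TGF-β1. *Igfbp7* held 56.1 ± 2.64% of them in NC and 85.3 ± 3.35% in NC + TGF-β1 (SD, n = 3). In knockdown cells it held 48.9 ± 5.81% without and 84.3 ± 1.16% with TGF-β1. *Igfbp6* held 34.9 ± 2.15% in NC and 39.9 ± 7.19% in siPdcd5, against 7.68 ± 2.47% in NC + TGF-β1 and 8.20 ± 1.44% in siPdcd5 + TGF-β1. Treated and untreated libraries did not overlap for either share. The summed level was 420 ± 13.4 CPM in siPdcd5, 560 ± 5.61 in NC, 775 ± 73.2 in siPdcd5 + TGF-β1 and 985 ± 209 in NC + TGF-β1. In this last group replicate 2 held 1214 CPM, against 803 and 938 in the others. For each 1000 *Igfbp* reads there were 2.73 ± 1.04 *Igf1* reads in siPdcd5, 13.2 ± 2.33 in NC, 32.5 ± 1.80 in siPdcd5 + TGF-β1 and 58.9 ± 10.3 in NC + TGF-β1. Shares of 3′ tags follow read counts and not protein, and the *Igfbp7* part includes reads that cannot be told from *Polr2b*.

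**Figure D4:**
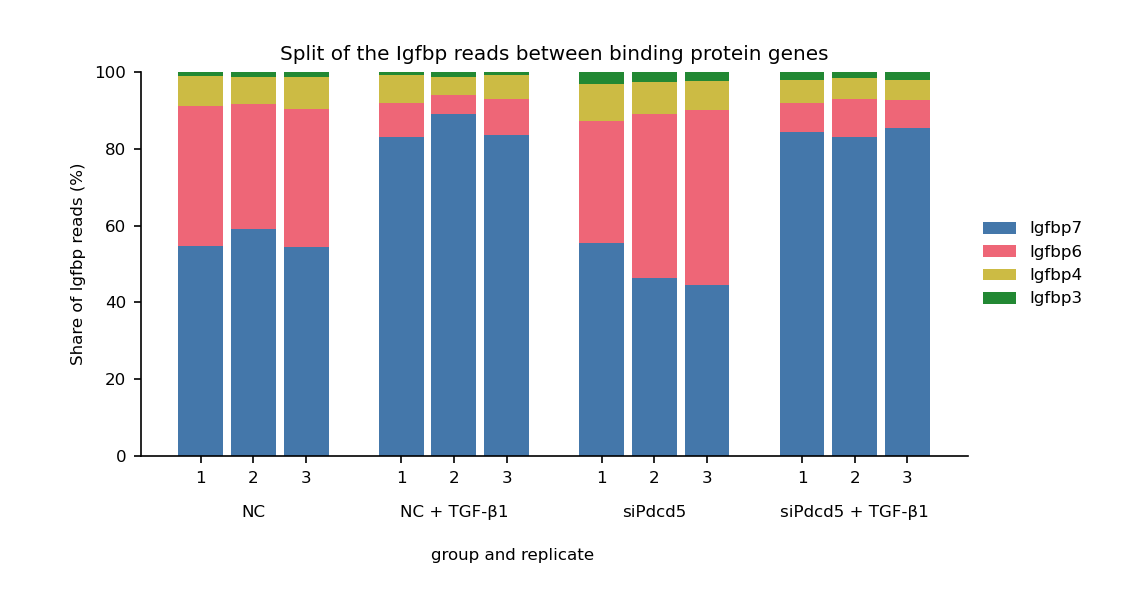
Share of the *Igfbp* reads (vertical axis, percent) held by *Igfbp7*, *Igfbp6*, *Igfbp4* and *Igfbp3* in each of the 12 libraries, by group and replicate (horizontal axis). *Igfbp2* and *Igfbp5* are too few to be seen. The *Igfbp6* part is 31.7 to 45.3% without TGF-β1 and 4.84 to 9.85% with it.

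Across the transcriptome, 12425 genes passed the filter on low counts, among them 7 of the 10 members, and *Igf2*, *Igfbp2* and *Igfbp5* did not. Called means an adjusted p under 0.05 in the quasi-likelihood test of edgeR, adjusted after Benjamini and Hochberg over all these genes. With TGF-β1 in control cells 15.3% of genes were called, among them 4 members (*Igf1*, *Igfbp4* and *Igfbp7* higher, *Igfbp6* lower), and with TGF-β1 in knockdown cells 16.1%, among them 3 (*Igf1* and *Igfbp7* higher, *Igfbp6* lower). With knockdown 3.44% were called without TGF-β1, among them 3 members (*Igf1*, *Igf1r* and *Igfbp7*, all lower), and 1.55% with it, among them 2 (*Igf1* and *Igf1r*, both lower). The libraries of the groups did not overlap for 4, 4, 6 and 3 members in these comparisons, against 29.6%, 36.1%, 23.1% and 18.9% of all genes. The median log2 difference of the 7 members was 0.42, 0.27, -0.27 and -0.37, beside medians over all genes of 0.00, -0.03, 0.02 and -0.02. Since the list was chosen by these values, nothing is read from these counts. Comparisons that share a group, such as TGF-β1 in control cells and knockdown without TGF-β1, share its 3 libraries.

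The difference between the TGF-β1 responses of knockdown and control cells gave 0 called genes (0% of 12425) by the same edgeR test, with 638 genes at an unadjusted p under 0.05 and 15 genes called by DESeq2. Simulated interactions of 2-fold in 200 genes were found in 56% of cases at this design. Apart from the planted change, each simulated gene had the same mean in all groups, unlike the data. The share found therefore need not hold for these libraries.

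The genes whose levels over the 12 libraries were nearest to those of a member were found by the root mean square difference of centred log2 CPM among 9127 genes. For *Igf1*, *Krt14*, a basal cell keratin, differed by 0.63 and *Ctgf*, a matricellular gene, by 0.94. For *Igfbp7*, the nearest was *Polr2b* at 0.09, followed by *Serpinb1a* at 0.13 and *Skil*, a SMAD corepressor, at 0.15. For *Igfbp6*, they were *Slc39a10*, a zinc transporter gene, at 0.13, *Slc16a1*, a lactate transporter gene, at 0.16 and *Dab2*, an endocytic adaptor gene, at 0.18. These distances describe the same 12 libraries and were not tested.

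Of 99 genes around the IGF receptor that are no members, 79 passed the count filter. With TGF-β1, 20 were called in control cells (8 higher and 12 lower) and 22 in knockdown cells (7 higher and 15 lower), beside the 15.3% and 16.1% of all genes given above. That was 25.3% and 27.8% of the 79. With knockdown, 1 was called without TGF-β1 and 3 with it, and 0 in the difference between the responses by edgeR or DESeq2, where 5 of the 79 had an unadjusted p under 0.05. Adjusted p-values below are those of the same edgeR test over all genes, with n = 3 libraries per group.

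Among 15 other binding proteins and genes of IGFBP processing, 8 were tested and 2 were called in each TGF-β1 comparison. *Htra1*, a secreted serine protease that cuts IGF-binding proteins, rose with TGF-β1 from 372 to 690 CPM in control cells (log2 fold change 0.89, SE 0.08, edgeR adjusted p = 2.43e-06). In knockdown cells it rose from 313 to 500 CPM (log2 fold change 0.67, edgeR adjusted p = 3.77e-05). It was lower by knockdown in treated cells (log2 fold change -0.46, SE 0.08, edgeR adjusted p = 0.00868), with no overlap of libraries. *Htra1* lies within the annotated span of *Fgfr2* on the other strand, which had 1.24 to 6.44% of its counts. The related *Htra3* fell with TGF-β1 from 25.0 to 14.3 CPM in control cells and from 29.3 to 17.0 CPM in knockdown cells (edgeR adjusted p = 0.00638 and 0.00635). *Pappa*, the protease of IGFBP4, was below the filter, with 0 or 1 count in NC, 0 in siPdcd5, 6 to 8 in NC + TGF-β1 and 7 to 12 in siPdcd5 + TGF-β1. *Igfals*, the acid-labile subunit of the serum complex, had 0 to 7 counts.

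Of 18 insulin ligand, receptor and adaptor genes, 13 were tested. With TGF-β1 5 were called in control cells (1 higher, 4 lower) and 4 in knockdown cells (all lower). *Irs1*, which docks PI3K to the activated receptor, fell from 107 to 69.9 CPM in control cells (log2 fold change -0.61, SE 0.10, edgeR adjusted p = 0.000441) and from 127 to 73.6 CPM in knockdown cells (log2 fold change -0.79, SE 0.10, edgeR adjusted p = 4.32e-05). *Socs3*, a feedback inhibitor of cytokine and insulin signalling, fell by 0.93 and 1.29 on the log2 scale, and the adaptors *Shc1* and *Gab1* fell by 0.53 and 0.77 in control cells and by 0.44 and 0.84 in knockdown cells. In NC + TGF-β1, replicate 2 was highest for *Gab1* (50.2 CPM against 22.4 and 26.3) and *Socs3* (26.5 against 15.0 and 15.5). The *Gab1* libraries of NC and NC + TGF-β1 overlapped. *Grb2*, the adaptor that links receptors to RAS, rose in control cells (log2 fold change 0.28, edgeR adjusted p = 0.0271) and had 0.21 in knockdown cells (edgeR adjusted p = 0.0874). The insulin receptor *Insr* had group means of 17.5 to 18.97 CPM, with log2 TGF-β1 differences of 0.00 and -0.04. *Irs2* had -0.37 (SE 0.23) and -0.31 (SE 0.23), with overlapping libraries. With knockdown edgeR called 0 genes of this list, with 3 at an unadjusted p under 0.05 without TGF-β1 and 1 with it.

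All 26 genes of the PI3K, AKT and mTOR list were tested, and 5 were called in each TGF-β1 comparison. *Eif4ebp1*, the translation repressor that mTOR inactivates, rose from 128 to 236 CPM in control cells (log2 fold change 0.88, SE 0.13, edgeR adjusted p = 0.000234) and from 105 to 201 CPM in knockdown cells (0.94, edgeR adjusted p = 0.000144). *Tsc2*, a brake on mTOR, and *Rheb*, the GTPase it restrains, rose by 0.67 and 0.34 in control cells and by 0.54 and 0.36 in knockdown cells on the log2 scale. In NC + TGF-β1, replicate 2 was highest for *Eif4ebp1* (274 CPM against 212 and 221) and lowest for *Tsc2* (188 CPM against 248 and 284). *Pik3r1*, the regulatory subunit of PI3K, fell by 0.82 and 0.38. In NC + TGF-β1 its lowest library was replicate 2, at 54.8 CPM against 70.6 and 76.2. *Akt2* fell in control cells (log2 fold change -0.38, edgeR adjusted p = 0.0405) and had -0.01 in knockdown cells, and the difference between these responses was not called (edgeR adjusted p = 0.951). Its NC + TGF-β1 libraries held 73.0, 94.3 and 94.9 CPM, the lowest in replicate 2, against 109 to 119 CPM in NC.

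Of 15 FOXO factors and target genes, 14 were tested. With TGF-β1 7 were called in control cells (2 higher, 5 lower) and 6 in knockdown cells (all lower). The median log2 difference of the list was -0.41 and -0.55, beside 0.00 and -0.03 over all genes. *Txnip*, which limits glucose uptake, fell from 26.6 to 12.8 CPM in control cells (log2 fold change -1.06, SE 0.26, edgeR adjusted p = 0.0104) and from 26.1 to 6.65 CPM in knockdown cells (-1.96, SE 0.27, edgeR adjusted p = 0.000140). Its NC + TGF-β1 libraries held 9.43, 9.63 and 19.2 CPM, the highest in replicate 2. The difference between its TGF-β1 responses was not called by edgeR. *Pik3ip1*, an inhibitor of PI3K, fell from 35.5 to 18.6 CPM in control cells and from 36.6 to 12.2 CPM in knockdown cells, at log2 fold changes of -0.93 (SE 0.12) and -1.59 (SE 0.12). It was also lower by knockdown in treated cells (log2 fold change -0.61, SE 0.13, edgeR adjusted p = 0.0307), and the difference between its TGF-β1 responses was not called (-0.66, edgeR adjusted p = 0.736). *Sesn1*, a stress-induced inhibitor of mTOR, and *Bcl2l11*, which encodes the pro-apoptotic BIM, fell by 0.79 and 0.46 in control cells and by 0.90 and 0.56 in knockdown cells. The factors *Foxo1* and *Foxo6* rose in control cells by 0.35 and 0.43 (edgeR adjusted p = 0.0264 and 0.00390), and had 0.25 and 0.05 in knockdown cells, where neither was called.

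Of the 12 IGF2 mRNA-binding proteins and imprinted neighbours 5 were tested. *Hmga2*, a chromatin protein known to raise *Igf2bp2*, rose with TGF-β1 from 137 to 190 CPM in control cells (log2 fold change 0.47, SE 0.09, edgeR adjusted p = 0.00273) and from 168 to 260 CPM in knockdown cells (0.64, edgeR adjusted p = 0.000229). It was the single listed gene called higher with knockdown, in treated cells (0.46, SE 0.09, edgeR adjusted p = 0.0240). *Airn* fell with TGF-β1 in knockdown cells from 31.8 to 22.8 CPM (log2 fold change -0.48, SE 0.13, edgeR adjusted p = 0.0214) and had -0.14 in control cells. Of the 13 mannose 6-phosphate sorting genes, all were tested. With TGF-β1 edgeR called 0 in control cells, where 4 had an unadjusted p under 0.05, and 3 in knockdown cells. The sorting receptor *Sort1* fell by 0.42, the retromer subunit *Vps26a* fell by 0.48 and *Plaur*, the urokinase receptor, rose by 0.67 on the log2 scale, with edgeR adjusted p = 0.0375, 0.0484 and 0.0353. In control cells their log2 differences were -0.34, -0.38 and 0.35.

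**Figure D5:**
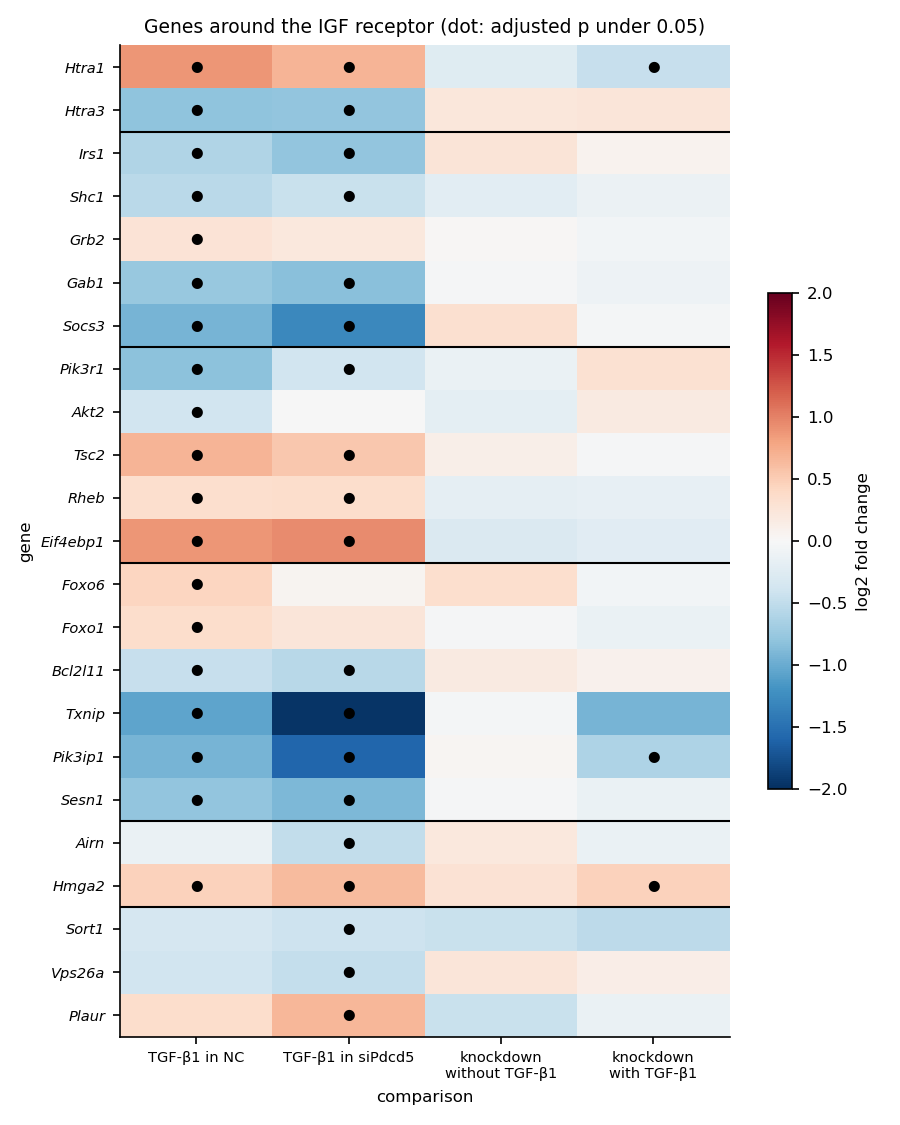
Log2 fold change (colour, from -2 to 2) of the named genes around the IGF receptor (vertical axis, grouped by list) in the 4 comparisons (horizontal axis). A dot marks an adjusted p under 0.05. Dots are frequent in both TGF-β1 columns, and for knockdown with TGF-β1 they stand at *Htra1*, *Pik3ip1* and *Hmga2*.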

How the data were processed

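RNA from 12 samples of C22 cells was sequenced as QuantSeq 3′ libraries, in 4 groups of 3. The authors aligned the reads with Bowtie2 (build mm10 per the submitters' processing notes) and deposited raw read counts per gene symbol, with whole numbers for 23282 symbols. The annotation and any use of strand are not given in the sources used here. Members and gene lists were chosen with earlier results of these data known. Counts were fitted with edgeR 4.0.16 in R 4.3.3 (filterByExpr, TMM, glmQLFit and glmQLFTest over all 12 libraries, group as the only factor, Benjamini-Hochberg over 12425 genes, calls at an adjusted p of 0.05). Intervals cover 95%. The depth was 12809857 to 17714828 counts per library, and 3 counts mark the floor.

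Named genes were all members and *Pdcd5*. From each pathway list they were all genes called in at least 1 comparison of 2 groups where 6 or fewer were called, and otherwise the 3 largest and 3 smallest log2 changes among those called. *Igfbp1*, *Insr*, *Irs1*, *Irs2*, *Pappa*, *Igfals* and *H19* were named by choice, as were the defining markers. *Cyp2f2*, *Aldh1a1*, *Krt8*, *Krt18*, *Foxa2*, *Col1a1*, *Col1a2*, *Col3a1*, *Dcn*, *Prrx1*, *Twist1* and *Lum* were named after their values were seen. So were *Krt19*, *Foxa1*, *Nkx2-1*, *Sox2*, *Elf3*, *Tcf21*, *Thy1*, *Abca3*, *Kdr*, *Cd68* and *Cd14*. The 3 genes nearest in pattern were taken for 3 members. Of the genes these rules name, 2 are not reported here. *Polr2b* and *Fgfr2* were described after their values were seen, because they overlap named genes. Log2 CPM used a prior count of 2. Alternatives were upper-quartile factors, no filter, a minimum of 10 counts in every library, a replicate block, only the libraries compared, quantile normalization with limma-trend (limma 3.58.1), DESeq2 1.42.0, CPM on total counts, and each library left out. The fit was tested on simulated data with 200 changed genes: for TGF-β1 in control cells it found 36.5%, 81% and 98% of genes changed 1.5-, 2- and 4-fold. Promoters are from RefSeq. Protein sequences were not used here.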

Additional observations from a re-analysis of the deposited data

How the results depend on the processing

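No member's fold change left its direction as a called difference under any alternative. Of the recomputed member fold changes 646 moved by less than the spread between replicates and 12 by more, all 12 with a library left out. With knockdown in treated cells, the members called went from 2 to 1 with upper-quartile factors, no filter or the replicate block. They also went to 1 with only the libraries compared and with quantile normalization with limma-trend. With DESeq2 they went to 3, with *Igfbp4* as the added member. In the interaction DESeq2 called 1 member, *Igf1*, where edgeR called 0. The pathway genes called with knockdown without TGF-β1 went from 1 to 2 with upper-quartile factors, only the libraries compared or quantile normalization, and to 5 with DESeq2. With TGF-β1 they went from 3 to 1 with the replicate block, 0 with only the libraries compared and 7 with DESeq2. Over all genes, knockdown without TGF-β1 called 427 and 714 with DESeq2. With TGF-β1 it called 192, but 107 with the block, 44 with only the libraries compared and 459 with DESeq2, and the interaction called 0 and 15. The cause was not tested.

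With each library left out in turn, the members called ranged from 3 to 4 and 3 to 4 for TGF-β1 in control and knockdown cells, 1 to 4 and 1 to 2 for knockdown without and with TGF-β1, and 0 to 0 for the interaction. The 1 for knockdown without TGF-β1 was without NC replicate 2, NC replicate 3 or siPdcd5 replicate 3. The pathway genes called ranged from 13 to 26, 13 to 27, 1 to 3, 0 to 5 and 0 to 0. The most pathway genes were called without NC + TGF-β1 replicate 2, and for knockdown without TGF-β1 as many without NC + TGF-β1 replicate 3. The 13 were without NC replicate 2 and without siPdcd5 + TGF-β1 replicate 3, and the 0 without the latter. Over all genes these ranges were 1391 to 2554, 1371 to 2761, 167 to 667, 73 to 322 and 0 to 2, each highest without NC + TGF-β1 replicate 2.

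Groups share replicate numbers, but same-numbered libraries did not deviate together: correlations of their deviations over genes were 0.01 to 0.17, -0.06 to 0.03, -0.03 to 0.08 and -0.32 to -0.04 in the 4 comparisons. The numbers were therefore not taken as pairs, and the block left 4, 3, 2 and 1 members called.

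Depth limits *Igf2*, *Igfbp2* and *Igfbp5*, at 6 counts or fewer, and *Igf1* in siPdcd5, at 11 to 30. Changes of 1.5-fold were mostly missed in simulation, and of 1.5-fold interactions 1.5% were found.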
